A study of Lachancea kluyveri with 31 samples.

Results

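The genes described here are 141 genes of the yeast Lachancea kluyveri whose RNA level lay on one side of wild type (WT) in all 3 mutants and at both iron levels. They were found among 5283 genes with a probe of their own on the array. A gene was taken when its difference from WT was at least 0.8, or at most -0.8, in log2 units in each of 6 cases, which are sef1Δ, aft1Δ and sef1Δ aft1Δ at low and at high iron. Each gene was read by the one of its probes with the higher mean over all arrays. Of the 141 members, 60 were higher and 81 were lower than WT in every case. These differences chose the members, so they are given below as a description, without a test.

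RNA was measured with 31 one-colour Agilent arrays in WT and 3 deletion mutants grown in high or low iron. Cultures grown overnight at 28 °C in rich medium (YPD) were diluted to 0.5 OD600 per ml and kept for 5.5 h at 30 °C in YPD with ferrous ammonium sulfate (high iron, 400 mM as labelled) or with the iron chelator BPS (low iron, 200 mM as labelled); the methods of the study give the same figures in µM. There were 3 arrays of sef1Δ at high iron and 4 of every other group. WT was JYL1897 (MATa ura3). The sef1Δ strain SkSef1KA1 (sef1Δ::KanMX6) and the aft1Δ strain SkAft1KA22 (aft1Δ::KanMX6) were made from it, and the strain SkSef1KAft1HA1 (sef1Δ::KanMX6 aft1Δ::HphMX4) was made from SkSef1KA1. The 3 mutants therefore share the KanMX6 marker, while each lacks SEF1, AFT1 or both. Each strain is 1 isolate.

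Each strain had a slide to itself. The 3 mutant slides were scanned one after another and the WT slide at another time. Strain and slide cannot be told apart in any difference between strains. All 6 differences use the same WT slide: the 3 cases at high iron share 4 WT arrays and the 3 cases at low iron share the other 4. A gene that read high or low on the WT slide alone would therefore meet the rule. Differences between iron levels within a strain lie within 1 slide.

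Sef1 and Aft1 are transcription factors of fungal iron regulation. In Saccharomyces cerevisiae, Aft1 switches on genes of iron uptake when iron is scarce, and in Candida albicans Sef1 has this role. Yeast cells growing on glucose keep genes for the use of acetate, lactate and fatty acids low, whereas genes for making ribosomes are high in fast growth. The carnitine shuttle carries activated acetyl groups between the cytosol and mitochondria, and gluconeogenesis rebuilds sugar from such small compounds.

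A log2 level below is the log2 of a spot's signal relative to the 75th percentile of its array, so that a level of 0 equals this percentile, and a difference of 1 is a fold of 2. Levels are read between arrays for 1 gene, not between genes. The 75th percentile signal ran from 10424 to 23244 over the arrays, and 137 of the 141 members were well above background on all 31 arrays. SEF1 had a mean level of -1.99 at high and -2.04 at low iron in WT, of -7.30 and -7.00 in sef1Δ and of -6.55 and -6.65 in sef1Δ aft1Δ. AFT1 had a mean of -2.16 and -0.86 in WT, of -4.73 and -4.80 in aft1Δ and of -3.23 and -3.49 in sef1Δ aft1Δ. Both deleted genes were thus lower in the strains labelled as lacking them.

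Of all 5283 genes, 2.69% passed the limit of 0.8 with one sign in all 6 cases, and 0.0568% passed it in all 6 with mixed signs. With any mix of signs, 2.74% passed it in all 6. Taken singly, in sef1Δ 4.77% of genes were higher and 7.17% lower past the limit at low iron, and 3.2% and 6.98% at high iron. In aft1Δ the shares were 15% and 11.2% at low and 11.4% and 7.57% at high iron, and in sef1Δ aft1Δ 10.9% and 8.01% at low and 9.75% and 5.15% at high iron. The mean of the 6 differences had a median of 1.44 over the higher members (range 1.05 to 2.76) and of -1.48 over the lower members (range -3.07 to -0.91). All 23 mutant arrays lay on one side of all 8 WT arrays for 58 of the 60 higher and 67 of the 81 lower members. The same held for 10.2% of all genes (5.22% higher and 4.98% lower), and nothing is read from this comparison because the rule fixed most of it. The spread between arrays of a group was small beside these differences, with a median SD of 0.20 over the members.

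**Figure D1:**
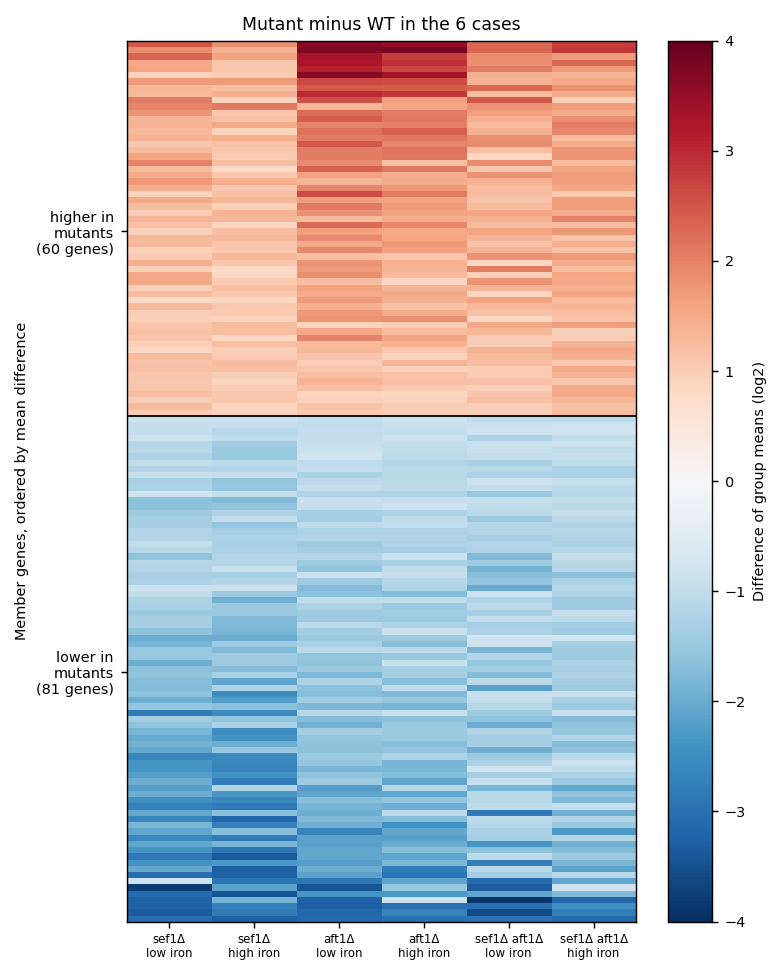
Difference from WT (log2, colour) of the 141 members (rows, ordered by the mean of their 6 differences) in the 6 cases (columns). The 60 higher members are red and the 81 lower members blue throughout, as the rule requires; the red is deepest in aft1Δ, with a median of 1.80 at low iron, and the blue deepest in sef1Δ, with a median of -1.69 at high iron.

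The limit of 0.8 cut through a continuous range. Just inside it among the higher members were SAKL0G18348g and SAKL0H03102g, with smallest differences of 0.8014 and 0.8044. Just outside were CUP2 (SAKL0B03344g, in S. cerevisiae a copper-sensing activator) and RLI1 (SAKL0H17996g, in S. cerevisiae a factor of ribosome recycling), with 0.7984 and 0.7963. Among the lower members the last inside were SAKL0G17534g and SAKL0C04576g, 0.8002 and 0.8077 below WT in their smallest case. SAKL0E06732g and SAKL0F09284g, 0.7967 and 0.7942 below, were just outside.

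Gene names come from similarity to S. cerevisiae genes, as listed in the study's supplementary notes. A note was at hand for 79 members and a gene name for 60, and the rest appear by locus number. The roles given below are those known in S. cerevisiae.

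The lower members held 7 of the 13 genes listed for two-carbon and gluconeogenic metabolism (53.8%, against 1.53% of all genes among the lower members). These were SFC1, PCK1, CRC1, YAT1, ADY2 and a pair of genes named JEN1. The median of the mean difference was -1.42 over the 13 genes and 0 over all genes. Of the 13, 11 were below WT in all 6 cases, as were 1228 of 5281 genes. The list was drawn up with earlier results of these data known, so its count supports nothing by itself.

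SFC1 (SAKL0F14234g) encodes the mitochondrial succinate-fumarate carrier, needed for growth on two-carbon compounds. In WT, SFC1 had log2 levels of -2.25, -2.12, -2.56 and -2.64 at high iron and -2.31, -2.53, -2.57 and -2.65 at low iron. In sef1Δ, SFC1 was at -3.53, -4.16 and -4.59 at high and -4.43, -4.67, -4.73 and -4.58 at low iron. In aft1Δ, SFC1 was at -4.33, -4.41, -4.71 and -4.47 at high and -5.43, -5.20, -5.02 and -4.93 at low iron, and in sef1Δ aft1Δ at -4.83, -4.34, -4.62 and -4.96 and -3.51, -3.67, -3.58 and -4.47. Every mutant array was below every WT array, and the mean difference was -2.02 (a fold of 4.04). PCK1 (SAKL0E15048g), phosphoenolpyruvate carboxykinase of gluconeogenesis, ran from -1.08 to -0.38 in WT and from -3.74 to -1.47 in the mutants, again with no overlap. Its mean difference was -1.87, and in sef1Δ it was -2.57 at high and -2.47 at low iron. On its other probe the mean was -0.58, and sef1Δ aft1Δ at low iron was 0.31 above WT.

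CRC1 (SAKL0E10186g) is the mitochondrial carnitine carrier and YAT1 (SAKL0C07700g) a carnitine acetyltransferase on the outer side of mitochondria, so both belong to the carnitine shuttle. In WT, CRC1 had log2 levels of 1.31, 1.11, 0.53 and 0.64 at high iron and 0.33, -0.65, -0.35 and -0.12 at low iron. In sef1Δ, CRC1 was at -0.67, -1.02 and -1.46 at high and -2.17, -2.27, -1.97 and -1.93 at low iron. In aft1Δ, CRC1 was at -0.80, -0.90, -0.81 and -0.77 at high and -2.07, -1.90, -1.70 and -1.57 at low iron, and in sef1Δ aft1Δ at -0.94, -0.58, -0.56 and -1.19 and -1.38, -1.63, -1.40 and -1.67. Within each iron level the mutants were below WT on every array, but WT at low iron overlapped the mutants at high iron. YAT1 had the same order: its group means were 0.79 at high and 0.02 at low iron in WT, against -0.37 and -1.10 in sef1Δ, -0.51 and -1.45 in aft1Δ, and -0.32 and -1.39 in sef1Δ aft1Δ. The mean differences were -1.70 for CRC1 and -1.26 for YAT1.

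ADY2 (SAKL0D09328g), an acetate transporter, ran from -2.79 to -1.20 in WT and from -4.37 to -2.80 in the mutants, with a mean difference of -1.42. JEN1 is the lactate and pyruvate transporter of S. cerevisiae. In WT, the JEN1 gene SAKL0G14938g had log2 levels of 2.36, 2.53, 1.82 and 2.02 at high iron and 1.65, 1.18, 1.34 and 1.91 at low iron. In sef1Δ, the JEN1 gene SAKL0G14938g was at 1.76, 1.09 and 0.18 at high and -0.65, -0.67, -0.83 and -0.52 at low iron. In aft1Δ, the JEN1 gene SAKL0G14938g was at 1.12, 0.76, 1.08 and 1.22 at high and -1.24, -0.86, -0.35 and -0.24 at low iron, and in sef1Δ aft1Δ at -0.10, 0.58, 0.17 and -0.18 and 0.12, -0.59, -0.18 and -0.72. Its mean difference was -1.77, and the lowest WT array, at low iron, lay below the highest arrays of sef1Δ and aft1Δ, which were at high iron. The other JEN1 member, SAKL0F02178g, had a mean difference of -1.90, but 6 of its 8 WT spots, all 4 at high iron among them, carried the scanner's mark for uneven spots. On its other probe the difference was only -0.19.

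Of the 6 genes of the two-carbon list that are no members, FBP1 (SAKL0H03740g, gluconeogenesis) had a mean difference of -1.45 and ACS1 (SAKL0D14608g, acetyl-CoA synthesis) of -1.13, and each passed the limit in 5 of 6 cases. ICL1 (SAKL0F08756g) and MLS1 (SAKL0E10846g), the enzymes particular to the glyoxylate cycle, had mean differences of -0.79 and -0.26. One more JEN1 gene, SAKL0D04510g, had 0.06.

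**Figure D2:**
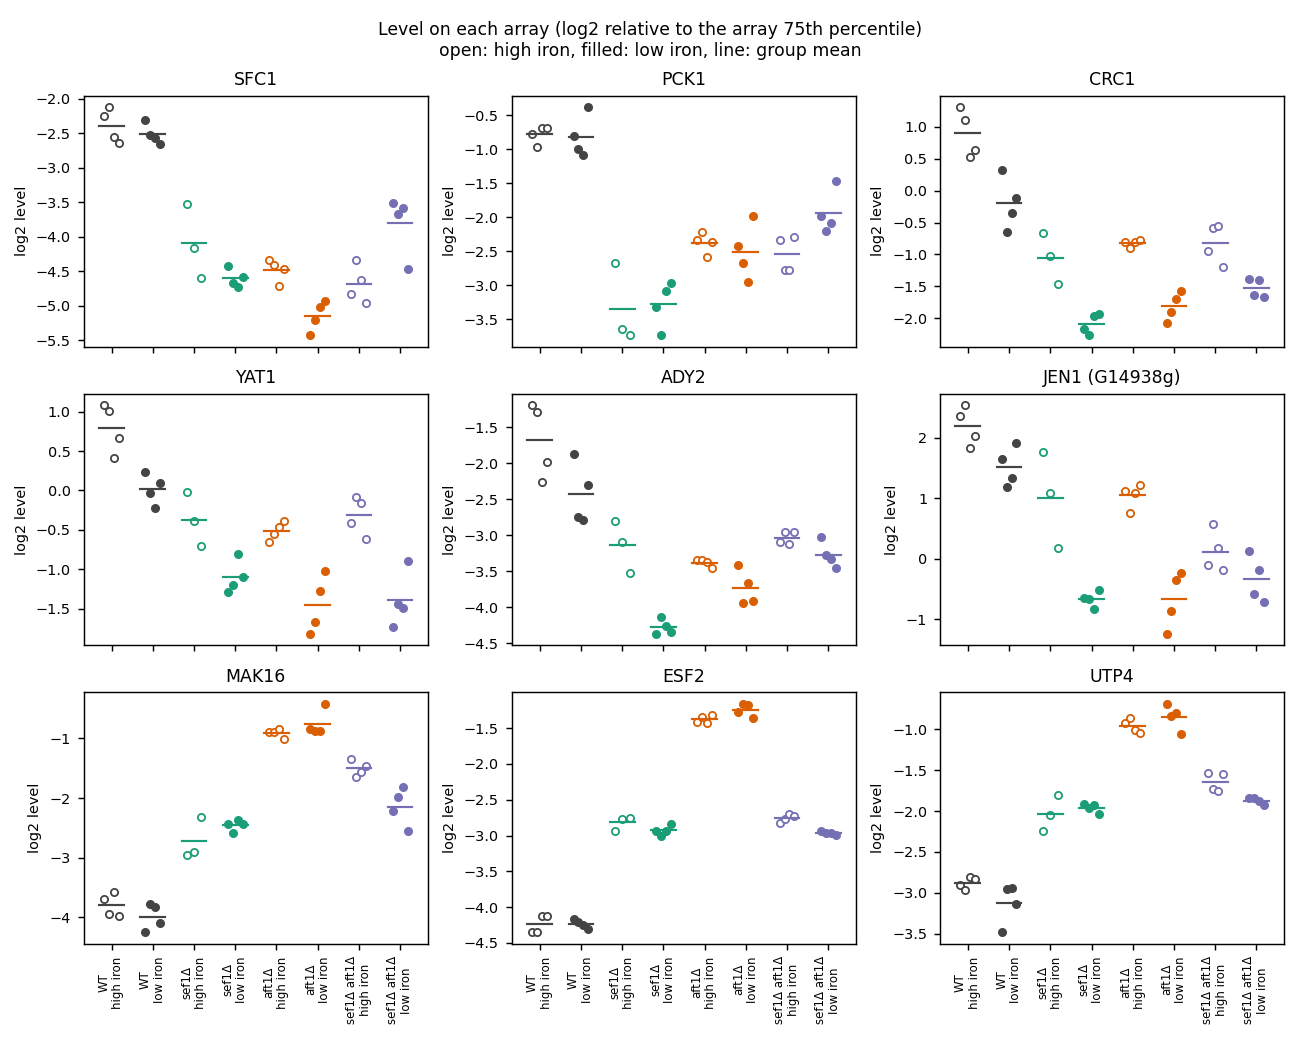
Log2 level on every array (vertical axes, relative to the array's 75th percentile) for 9 members, with arrays grouped by strain and iron level (open circles, high iron; filled circles, low iron; line, group mean). The 6 two-carbon genes lie lower in the mutants than in WT at the same iron level, and MAK16, ESF2 and UTP4 lie higher, with aft1Δ on top.

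Among the higher members the largest annotated group was ribosome synthesis, with 7 of 91 listed genes (7.69%, against 1.14% of all genes among the higher members) and 1 among the lower. The 7 were MAK16, ESF2, NSA2, UTP4, NHP2, FCF1 and BRX1, and the lower one was NAF1. Over the 91 genes the mean difference had a median of 0.61, and 53 were above WT in all 6 cases, as were 1236 of 5281 genes. This list, too, was drawn up with earlier results known.

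MAK16 (SAKL0B10164g) acts in making the large ribosomal subunit. In WT, MAK16 had log2 levels of -3.69, -3.95, -3.57 and -3.98 at high iron and -4.25, -3.78, -3.83 and -4.10 at low iron. In sef1Δ, MAK16 was at -2.96, -2.90 and -2.31 at high and -2.44, -2.58, -2.37 and -2.43 at low iron. In aft1Δ, MAK16 was at -0.90, -0.90, -0.84 and -1.01 at high and -0.85, -0.87, -0.88 and -0.42 at low iron, and in sef1Δ aft1Δ at -1.35, -1.65, -1.56 and -1.46 and -2.22, -1.99, -1.81 and -2.56. The mean difference of 2.14 (a fold of 4.42) was the largest of the list, and every mutant array was above every WT array. ESF2 (SAKL0A00198g) acts in processing the RNA of the small subunit. In WT, ESF2 had log2 levels of -4.35, -4.34, -4.12 and -4.13 at high iron and -4.16, -4.20, -4.25 and -4.31 at low iron. In sef1Δ, ESF2 was at -2.93, -2.77 and -2.75 at high and -2.93, -3.00, -2.93 and -2.84 at low iron. In aft1Δ, ESF2 was at -1.42, -1.34, -1.43 and -1.32 at high and -1.27, -1.16, -1.18 and -1.36 at low iron, and in sef1Δ aft1Δ at -2.83, -2.77, -2.70 and -2.73 and -2.93, -2.97, -2.96 and -2.99. The arrays of a group differed little, and the 3 mutants formed 2 levels, with sef1Δ and sef1Δ aft1Δ near each other and aft1Δ above both.

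NSA2 (SAKL0H24640g, large subunit) and UTP4 (SAKL0G08492g, small subunit) had mean differences of 1.57 and 1.45. UTP4 ran from -3.48 to -2.80 in WT and from -2.24 to -0.69 in the mutants. NHP2 (SAKL0H12056g, a protein of the particles that modify ribosomal RNA), FCF1 (SAKL0G07766g, small subunit) and BRX1 (SAKL0C10428g, large subunit) had 1.34, 1.25 and 1.25. NAF1 (SAKL0E11088g), which assembles the same particles as NHP2, was lower by a mean of -1.24. The set also took in other parts of the machinery of RNA and protein, all higher and named after their values were seen: TRM82 (SAKL0H14806g, transfer RNA methylation) with 1.70, RPC11 (SAKL0D03190g, RNA polymerase III) with 1.34 and SSS1 (SAKL0H18216g, the protein channel of the endoplasmic reticulum) with 1.31.

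The 6 members highest above WT were SAKL0G12034g, ATC1, SAKL0A03036g, MAK16, SAKL0F02838g and SAKL0A03630g. ATC1 (SAKL0H13904g, by weak similarity a nuclear protein of cation stress) had the second highest mean difference, 2.65 (a fold of 6.27). In WT, ATC1 had log2 levels of -5.67, -5.59, -5.16 and -5.30 at high iron and -6.06, -5.21, -5.66 and -4.89 at low iron. In sef1Δ, ATC1 was at -4.49, -4.13 and -3.51 at high and -3.57, -3.71, -3.37 and -3.74 at low iron. In aft1Δ, ATC1 was at -1.77, -1.62, -1.61 and -1.57 at high and -1.92, -1.63, -1.60 and -1.72 at low iron, and in sef1Δ aft1Δ at -2.70, -3.03, -2.68 and -1.96 and -3.34, -3.30, -3.34 and -2.70. Its difference was 3.79 in aft1Δ and 1.39 in sef1Δ at high iron. SAKL0A03630g, for which no note was at hand, was nearer to WT in 2 of the mutants than in aft1Δ. In WT, SAKL0A03630g had log2 levels of -0.53, -0.12, 0.48 and -0.32 at high iron and -0.06, -0.27, -0.17 and -0.13 at low iron. In sef1Δ, SAKL0A03630g was at 0.77, 1.12 and 0.94 at high and 0.69, 0.71, 0.81 and 0.87 at low iron. In aft1Δ, SAKL0A03630g was at 3.19, 3.29, 3.17 and 3.16 at high and 3.39, 3.94, 3.27 and 3.31 at low iron, and in sef1Δ aft1Δ at 1.04, 0.92, 1.09 and 1.94 and 1.11, 1.04, 1.19 and 1.71. All aft1Δ arrays stood above 3, while no array of the other 2 mutants reached 2.

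SAKL0G12034g, the highest member, ran from -3.98 to -3.23 in WT and from -1.99 to 0.24 in the mutants, a mean difference of 2.76 (a fold of 6.77). SAKL0A03036g and SAKL0F02838g had mean differences of 2.26 and 2.02. In 5 of these 6 genes the lowest mutant array was one of sef1Δ at high iron, and SAKL0A03630g was the exception.

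The 6 members lowest below WT were SAKL0H13178g, SAKL0F13750g, MNE1, RGT2, SAKL0C02156g and SAKL0G19888g. SAKL0H13178g had the lowest mean difference, -3.07 (a fold of 8.38). In WT, SAKL0H13178g had log2 levels of -1.94, -1.96, -2.31 and -1.86 at high iron and -2.65, -2.31, -2.65 and -1.97 at low iron. In sef1Δ, SAKL0H13178g was at -4.73, -5.44 and -5.67 at high and -5.40, -5.56, -5.20 and -5.57 at low iron. In aft1Δ, SAKL0H13178g was at -5.26, -4.62, -5.21 and -4.90 at high and -4.96, -5.55, -6.01 and -5.47 at low iron, and in sef1Δ aft1Δ at -4.49, -4.99, -5.42 and -5.45 and -4.90, -5.36, -5.69 and -5.42. The 3 mutants gave nearly one value, with differences between -3.26 and -2.95. SAKL0F13750g behaved alike, from 0.47 to 1.05 in WT and from -2.89 to -1.60 in the mutants, with a mean difference of -3.05. SAKL0C02156g ran from -3.00 to -1.73 in WT and from -5.86 to -3.60 in the mutants, and 3 of its WT spots were marked as uneven.

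RGT2 (SAKL0D10450g) is named for the glucose sensor of the plasma membrane, although its note points to a Kluyveromyces lactis gene. In WT, RGT2 had log2 levels of 2.67, 2.36, 1.63 and 1.90 at high iron and 2.68, 2.12, 2.02 and 2.10 at low iron. In sef1Δ, RGT2 was at 1.11, 0.52 and -0.74 at high and -1.0, -0.72, -1.28 and -1.09 at low iron. In aft1Δ, RGT2 was at 1.31, 0.98, 1.47 and 1.43 at high and -1.58, -1.59, -0.56 and -0.32 at low iron, and in sef1Δ aft1Δ at -1.35, -0.32, -0.99 and -1.34 and -1.40, -1.44, -1.47 and -2.35. All mutant arrays were below all WT arrays, and the difference in aft1Δ was -0.84 at high and -3.24 at low iron. MAL11 (SAKL0A05676g), a maltose transporter, had differences of -2.50 at high and -2.79 at low iron in sef1Δ and between -1.43 and -0.89 in the other 2 mutants. Its other probe, well above background on every array, gave -0.69 at high and -2.66 at low iron in sef1Δ. On that probe MAL11 was above WT at high iron in aft1Δ (1.18) and sef1Δ aft1Δ (0.78), with -0.48 and -1.04 at low iron. HXT1 (SAKL0D14960g), a hexose transporter and the one member among 11 listed sugar transport genes, was closest to WT in sef1Δ aft1Δ, with -0.81 at each iron level, and farthest in sef1Δ, with -1.97 at high and -1.99 at low iron.

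SAKL0G19888g shows what a dim probe can give. In WT, SAKL0G19888g had log2 levels of -8.55, -8.69, -8.75 and -8.40 at high iron and -3.32, -3.47, -6.90 and -9.37 at low iron. At low iron, its WT arrays were split, with 2 of the 4 far above the others, and no array of any mutant group was well above background. At low iron, where 3 of 4 WT arrays were well above background, it was at least 3.62-fold lower in sef1Δ, at least 2.75-fold lower in aft1Δ and at least 3.54-fold lower in sef1Δ aft1Δ. For these bounds a dim array was set at the weakest signal that its clearly detected probes reached. At high iron no fold can be given. These bounds rested on the 2 bright WT arrays, since without replicate 1 they were 2.06-, 1.56- and 2.01-fold. SAKL0G00110g was dim in all mutants at low iron too, with 2 of 4 WT arrays well above background. Its WT levels at low iron were -8.44, -7.22, -3.43 and -7.01, so that 1 array carried the mean. The bounds of 2.14-, 1.62- and 2.09-fold lower fell to 1.05-fold in sef1Δ and 1.02-fold in sef1Δ aft1Δ without that array, and none was left in aft1Δ. With marked spots left out and each array's median as the scale, the mean difference from WT was -1.48 for SAKL0G19888g and -1.37 for SAKL0G00110g. The bounds of both genes were not worked out without marked spots.

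The Mediator complex, which links transcription factors to RNA polymerase II, had 3 members among 13 listed genes, 1 higher and 2 lower. PGD1 (SAKL0H21450g), a subunit of its tail, ran from 0.35 to 1.25 in WT and from -1.63 to -0.77 in the mutants, a mean difference of -2.06. ROX3 (SAKL0F13244g), a subunit of its head, had 1.67. SSN3 (SAKL0H11352g), its kinase, had -1.5, yet 1 of the 4 WT arrays at high iron stood at -0.27, within the range of the mutants, and the other 3 between 1.23 and 1.32. Over the 13 listed genes the mean difference had a median of 0.31, with 6 above WT and 3 below it in all 6 cases. Higher members made up 7.69% of the list and lower ones 15.4%, against 1.14% and 1.53% of all genes.

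Meiosis and sporulation had 3 lower members among 84 listed genes (3.57%, against 1.53% of all genes), ADY2 being one. Over the 84 genes, 36 were below WT and 12 above it in all 6 cases. REC8 (SAKL0B03234g), the meiotic cohesin subunit, had a mean difference of -2.30, which its other probe, a dim one, did not show. In WT, REC8 had log2 levels of -2.74, -2.99, -2.60 and -2.77 at high iron and -2.97, -2.35, -3.46 and -2.98 at low iron. In sef1Δ, REC8 was at -5.80, -6.11 and -6.21 at high and -6.39, -5.93, -5.82 and -5.72 at low iron. In aft1Δ, REC8 was at -5.71, -5.38, -5.76 and -5.98 at high and -5.15, -4.79, -5.52 and -4.85 at low iron, and in sef1Δ aft1Δ at -3.60, -4.14, -4.15 and -3.57 and -3.87, -4.72, -4.35 and -4.32. The order was sef1Δ lowest, aft1Δ next and sef1Δ aft1Δ nearest to WT. SPO75 (SAKL0G12694g, sporulation) had the same order, with -2.60, -1.86 and -0.86 at high iron.

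DNA replication had 3 lower members among 34 listed genes (8.82%, against 1.53% of all genes among the lower members). The list as a whole was not lower: its mean difference had a median of 0.12, with 10 genes above WT and 8 below it in all 6 cases. The members were ABF1 (SAKL0E03278g), which binds replication origins and promoters, with a mean difference of -1.31, and PSF3 and SLD5. PSF3 (SAKL0C13794g) and SLD5 (SAKL0C09570g), both of the GINS complex of the replication fork, had -1.28 and -1.06. Chaperones gave 1 higher member of 32, FES1 (SAKL0B07392g), an exchange factor of Hsp70, which ran from -1.34 to -0.25 in WT and from 0.30 to 1.68 in the mutants. The mitochondrial ribosome gave 1 of 39, SAKL0C05258g, with 1.32. Higher members made up 3.12% of the chaperone list and 2.56% of the mitochondrial ribosome list, against 1.14% of all genes. None of the 31 listed iron uptake genes was a member. Below WT in all 6 cases were 8 of them, a share close to that of all genes (1228 of 5281). The median mean difference over the list was -0.74.

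Members were found on all 8 chromosomes. Their share of the genes ran from 1.57% on chromosome A to 3.54% on chromosome E, against 2.69% of all genes. Chromosome C carried 15 lower and 2 higher members, 2.61% and 0.348% of its genes, against 1.53% and 1.14% of all genes. Only 2 pairs of members had neighbouring locus numbers, CWC2 with NHP2 and SSS1 with SAKL0H18238g, and all 4 genes were higher. Few members thus lay side by side, and gathering over wider stretches of a chromosome was not tested.

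Nearly all genes had another probe on the array, which the rule had not used. It was read on the same arrays, so it shares the WT slide and the cultures, and only the probe differs. On the other probe, 4.93% of 5273 genes were higher and 0.417% lower by at least 0.8 in all 6 cases. For the higher members, 31 of 60 passed the limit on the other probe as well, 59 had a mean difference above 0, and the median was 1.33. For the lower members, 13 of 81 passed it, 58 had a mean difference below 0, and the median was -0.45. On this second reading, then, the higher members largely kept their size and most lower members did not, while 69.7% of all genes had a mean above 0.

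**Figure D3:**
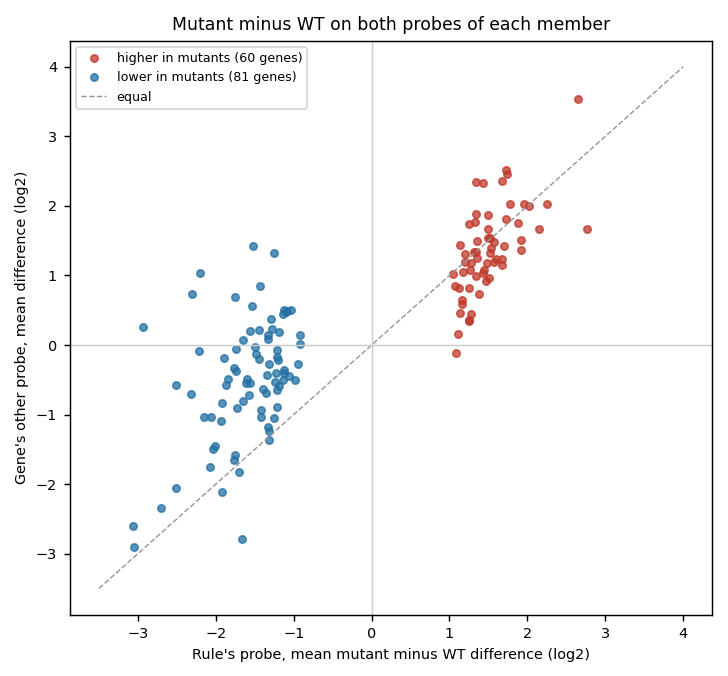
Mean of the 6 differences from WT on the probe used by the rule (horizontal, log2) and on the gene's other probe (vertical, log2) for each member; the dashed line marks equal values. All but 1 of the higher members lie above 0 on the other probe, while 23 of the 81 lower members lie above 0 and most of the rest lie closer to 0 than on the rule's probe.

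The 44 members that passed the limit on both probes were 31 higher and 13 lower. Among the lower ones were SAKL0H13178g with -3.07 and -2.60 (rule's probe first), SAKL0F13750g with -3.05 and -2.90, SAKL0C02156g with -2.51 and -2.06, PGD1 with -2.06 and -1.04, JEN1 (SAKL0G14938g) with -1.77 and -1.65, CRC1 with -1.70 and -1.82, and YAT1 with -1.26 and -1.05. Among the higher ones were ATC1 with 2.65 and 3.54 (the other probe was well above background on 1 of 4 WT arrays at low iron), SAKL0A03630g with 1.96 and 2.02, ESF2 with 1.89 and 1.76, and FES1 with 1.57 and 1.2. RGT2 had -2.70 and -2.35, SFC1 -2.02 and -1.45, and MAK16 2.14 and 1.67, without passing the limit in all 6 cases on the other probe.

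The probes of SAKL0D13376g and MNE1 (SAKL0B11022g, a mitochondrial protein) disagreed most. MNE1 was at 0.54 to 1.34 in WT and at -2.29 to -1.54 in the mutants on the rule's probe, a mean difference of -2.94, but differed by 0.26 on the other. On that other probe its WT levels were -2.13, -2.14, -2.36 and -2.21 at high and -2.29, -2.17, -2.94 and -2.67 at low iron, against -2.49 to -1.65 over all mutant arrays, so that 6 of the 8 WT arrays lay in the range of the mutants and 2 below it. SAKL0D13376g had -2.21 on the rule's probe and 1.04 on the other. The other probe of REC8 was dim, between -8.72 and -7.96 in WT. It was well above background on 3 of 4 WT arrays at high iron and on 0 of 4 at low iron. All sef1Δ aft1Δ arrays read it well above background, and that strain was 0.82 above WT at high iron. At low iron the strain was at -6.24 to -5.17, above every WT array, by an uncertain size. This was against the direction of the rule's probe. With 1 sef1Δ array well above background at each iron level, no difference is taken for sef1Δ. For the lower members SSN3, SPO75, PSF3 and ABF1 the other probe gave -0.03, -0.06, 0.24 and -0.27.

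Differences from WT also moved with probe level over the whole array. When the 10558 probes were split into 5 equal classes by mean level, the median mean difference was 0.33 in the dimmest class, 0.27, 0.14 and 0.02 in the next ones, and -0.08 in the brightest. WT arrays had 0.29% to 3.48% of spots marked as uneven, sef1Δ arrays 0.019% to 0.33%, aft1Δ arrays 0% to 0.113% and sef1Δ aft1Δ arrays 0.028% to 1.81%. Among the members, 14 had at least 1 marked spot in WT and 123 had no marked spot on any array. The part that probe level or marked spots play in the set was not tested.

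The scale of the arrays set how the set divided. With the 75th percentile, 42.6% of members were higher and 57.4% lower. With each array's median as the scale, 153 genes met the rule (22.2% higher), with quantile normalization 133 (18.8% higher), and with differences centred within 20 bins of probe level, an alternative added after seeing the data, 152 (21.1% higher). The median over all genes then moved to -0.16, -0.10 and -0.09. No member's mean difference changed sign under these scalings or under another background correction. The median of the 7 higher ribosome synthesis members stayed between 1.26 and 1.45 and that of the 7 two-carbon members between -1.93 and -1.64.

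The response to iron within a strain was not used to choose the members, and it was tested with limma over all arrays. Calls needed a fold of at least 1.5 between low and high iron and a p, adjusted by Benjamini-Hochberg over all genes, no higher than 0.05. In WT, 7 of 140 members tested were called (5%, against 4.49% of all genes), 2 higher in low iron (2.6% of all genes were) and 5 lower (1.89%). In sef1Δ 16 of 141 were called (11.3%, against 5.74%), 11 higher (3.2%) and 5 lower (2.54%). In aft1Δ 10 were called (7.09%, against 3.29%), 3 higher (1.46%) and 7 lower (1.84%). In sef1Δ aft1Δ 20 were called (14.2%, against 14.5%), 6 higher (7.04%) and 14 lower (7.48%). Of the 141 members, 39 were called in at least 1 strain (27.7%, against 19.8%), 29 of them in 1, 8 in 2 and 2 in all 4, as were 0.587% of all genes. In WT and sef1Δ aft1Δ the members' shares were thus close to those of all genes, and in the other 2 strains above them.

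CRC1 and YAT1 were the members called in all 4 strains, and both fell in low iron. CRC1 fell by 1.1 ± 0.18 (SE) in WT (adjusted p = 6.49e-05), by 1.03 ± 0.20 in sef1Δ, by 0.99 ± 0.18 in aft1Δ and by 0.70 ± 0.18 in sef1Δ aft1Δ. YAT1 fell by 0.77 ± 0.18, 0.73 ± 0.19, 0.94 ± 0.18 and 1.07 ± 0.18. The other probes of both genes gave the same direction on these arrays. The carnitine shuttle genes thus responded to iron in the mutants, at levels that stayed below WT.

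PSF3 rose in WT, by 0.67 ± 0.16 (adjusted p = 0.00347), but its other probe gave 0.00 there. The other two-carbon members were called in some strains and not in others. ADY2 fell by 0.75 ± 0.19 in WT (adjusted p = 0.00727) and by 1.14 ± 0.20 in sef1Δ (adjusted p = 0.000174), and had -0.35 ± 0.19 in aft1Δ and -0.23 ± 0.19 in sef1Δ aft1Δ. JEN1 (SAKL0G14938g) fell by 1.68 ± 0.27 in sef1Δ and by 1.72 ± 0.25 in aft1Δ, with adjusted p of 3.11e-05 and 1.37e-05, and had -0.66 ± 0.25 in WT and -0.46 ± 0.25 in sef1Δ aft1Δ. SFC1 fell by 0.67 ± 0.19 in aft1Δ (adjusted p = 0.0204) but rose by 0.88 ± 0.19 in sef1Δ aft1Δ (adjusted p = 0.000335). PCK1 rose by 0.61 ± 0.21 in sef1Δ aft1Δ (adjusted p = 0.0204). Of the listed genes, 5 of 12 tested were called in WT (41.7%, against 4.49% of all genes), 4 lower and 1 higher. In sef1Δ and in aft1Δ 6 of 13 were called (46.2%, against 5.74% and 3.29%), all lower, and in sef1Δ aft1Δ 7 of 13 (53.8%, against 14.5%), 4 lower and 3 higher.

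**Figure D4:**
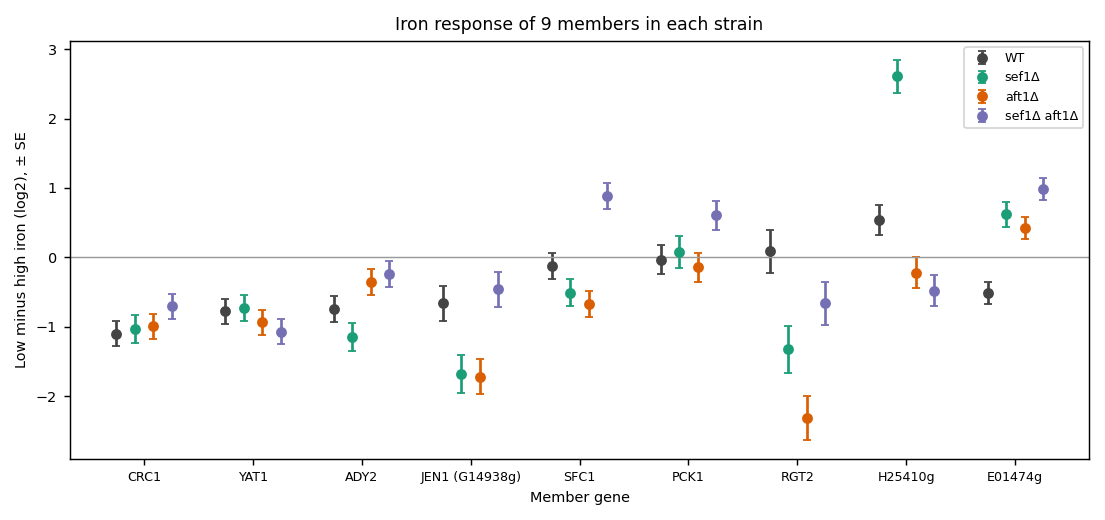
Low minus high iron (log2, vertical axis; points, limma estimate; bars, ± SE) for 9 members in the 4 strains. CRC1 and YAT1 lie below 0 in every strain, SFC1 lies below 0 in aft1Δ (-0.67) and above it in sef1Δ aft1Δ (0.88), and SAKL0H25410g stands out in sef1Δ (2.61).

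RGT2 fell in low iron by 2.31 ± 0.31 in aft1Δ (adjusted p = 6.1e-06) and by 1.32 ± 0.34 in sef1Δ (adjusted p = 0.00739), while WT gave 0.09. The sef1Δ call was lost without replicate 1 of sef1Δ at high iron (-0.91, adjusted p = 0.108) or without replicate 2 (-1.21, adjusted p = 0.0502), and over all arrays left out in turn the value ran from -1.84 to -0.91. SAKL0H25410g, whose note gives only a similarity to a hypothetical protein of Eremothecium cymbalariae, rose by 2.61 ± 0.24 in sef1Δ (adjusted p = 1.56e-09), and no other member moved as far. In WT, SAKL0H25410g had log2 levels of -2.93, -2.72, -2.38 and -2.67 at high iron and -2.03, -2.13, -1.97 and -2.40 at low iron. Its sef1Δ levels were -5.31, -5.52 and -5.91 at high iron, against -2.86, -2.58, -2.79 and -3.66 at low iron.

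The 2 probes of SAKL0H25410g told different accounts of WT. On the other probe, WT levels were -8.50, -9.46, -8.63 and -9.15 at high iron and -3.59, -3.53, -3.36 and -3.49 at low iron, whereas the rule's probe differed by 0.54. At high iron 2 of the 4 WT arrays were well above background on the other probe, so the size of its rise in WT is uncertain. In sef1Δ, with all 7 arrays well above background there, it rose by 5.57, and in sef1Δ aft1Δ, with 7 of 8, it differed by -0.23. In aft1Δ no array at low iron was well above background on it. At low iron, with all arrays of WT and sef1Δ well above background on the other probe, sef1Δ was 0.74 above WT. Both probes thus showed the rise in sef1Δ, and they parted on WT.

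Among the higher members, 8 of 60 were called in sef1Δ, all higher in low iron (13.3%, against 3.2% of all genes called higher). In sef1Δ aft1Δ 14 of 60 were called (23.3%, against 14.5%), 10 of them lower (16.7%, against 7.48%). In sef1Δ aft1Δ the ribosome synthesis members MAK16, NSA2 and NHP2 fell by 0.64 ± 0.15, 0.76 ± 0.17 and 0.80 ± 0.14, and over the 91 listed genes 10 fell and 3 rose (14.3% called, close to the 14.5% of all genes). RPC11, SSS1 and TRM82 fell by 0.85 ± 0.19, 0.80 ± 0.14 and 0.60 ± 0.14 in the same strain. In sef1Δ, NSA2 rose by 0.74 ± 0.18. In aft1Δ none of the 8 ribosome synthesis members was called, and ROX3 rose by 0.60 ± 0.18 and SAKL0F06116g by 0.63 ± 0.10. The last gene rose in sef1Δ too, by 0.70 ± 0.11. These genes beyond MAK16, NSA2 and ROX3 were named after their values were seen.

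Whether a mutant responded to iron otherwise than WT was tested as the difference of the 2 responses, in which a constant offset between slides cancels. For sef1Δ 7 of 140 members were called (5%, against 3.03% of all genes), all with a higher response than in WT, whereas all genes divided into 1.63% higher and 1.4% lower. For aft1Δ 4 were called (2.86%, against 5.61%), 2 higher (2.22%) and 2 lower (3.39%). For sef1Δ aft1Δ 19 were called (13.6%, against 13.7%), 7 higher (6.69%) and 12 lower (7.01%). The count for sef1Δ fell to 3 or 4 without any 1 of 7 arrays (replicate 1 or 3 of either WT group, replicate 2 of sef1Δ at high iron, replicate 3 or 4 of sef1Δ at low iron) and was 2 on the other probe. With the replicate number as a block, 13, 9 and 24 members were called, among them all those called without it. In all, 24 members were called in at least 1 of the 3 (17%, against 17.5% of all genes).

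SAKL0E01474g, a higher member without a note, was the one called in all 3 beside SAKL0F16346g. In WT, SAKL0E01474g had log2 levels of -1.98, -2.0, -1.97 and -2.11 at high iron and -2.59, -2.33, -2.76 and -2.45 at low iron. In sef1Δ, SAKL0E01474g was at -1.27, -1.12 and -0.85 at high and -0.69, -0.48, -0.42 and -0.23 at low iron. In aft1Δ, SAKL0E01474g was at -0.32, -0.43, -0.41 and -0.40 at high and 0.06, 0.13, 0.07 and -0.13 at low iron, and in sef1Δ aft1Δ at -1.18, -1.49, -1.08 and -0.44 and -0.43, -0.25, -0.03 and 0.48. Its low minus high iron difference was -0.52 in WT, and the response exceeded that of WT by 1.14 ± 0.24 in sef1Δ (adjusted p = 0.0071), 0.94 ± 0.23 in aft1Δ (adjusted p = 0.00848) and 1.51 ± 0.23 in sef1Δ aft1Δ (adjusted p = 1.47e-05). No mutant array overlapped WT at either iron level. On the other probe of SAKL0E01474g the response exceeded that of WT by 0.87 ± 0.29 in sef1Δ (adjusted p = 0.0892) and 0.85 ± 0.27 in aft1Δ (adjusted p = 0.052). Neither was called there, whereas 1.25 ± 0.27 in sef1Δ aft1Δ was (adjusted p = 0.00135).

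For aft1Δ the 2 members called with a lower response than WT were RGT2, with -2.40 ± 0.44 (adjusted p = 0.000442), and YKU80 (SAKL0E03652g, a telomere and repair protein), with -0.73 ± 0.16. The other probe of YKU80, well above background on every array, gave -0.07 ± 0.19 (adjusted p = 0.88, not called). The YKU80 call thus rested on the rule's probe alone. JEN1 (SAKL0G14938g) had -1.06 ± 0.35 and missed the threshold (adjusted p = 0.0597). For SAKL0H25410g the response exceeded that of WT by 2.07 ± 0.33 in sef1Δ and differed from it by -1.02 ± 0.32 in sef1Δ aft1Δ, a call lost without replicate 1 of sef1Δ aft1Δ at high iron (-0.80, adjusted p = 0.0563). The other probe rose in WT as well, as given above, and gave 0.12 ± 0.33 for sef1Δ in this test (adjusted p = 0.878, not called). For sef1Δ aft1Δ it gave -5.67 ± 0.31. The higher response of sef1Δ thus rested on the rule's probe alone. SFC1 exceeded WT by 1.00 ± 0.26 in sef1Δ aft1Δ (adjusted p = 0.00624). NSA2 and ABF1 differed from WT by -0.97 ± 0.24 and -0.82 ± 0.16 in that strain. SAKL0F16346g was called in all 3, at 1.32, 1.19 and 1.07, and SAKL0D00506g in sef1Δ and sef1Δ aft1Δ, at 1.24 and 1.04. The calls of these 2 genes were unsteady: SAKL0F16346g lost them on leaving out single arrays in 19, 14 and 6 of 31 trials, SAKL0D00506g in 10 and 2. Their other probes were well above background on no array at low iron and say nothing of the response.

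How alike the 3 mutants were among themselves was tested between mutants, as the mean over both iron levels, without the WT arrays. For aft1Δ against sef1Δ 47 of 141 members were called (33.3%, against 20.2% of all genes), 45 higher in aft1Δ (14.8%) and 2 lower (5.43%). For sef1Δ aft1Δ against sef1Δ 33 were called (23.4%, against 11.5%), 30 higher (8.54%) and 3 lower (2.93%). For sef1Δ aft1Δ against aft1Δ 36 were called (25.5%, against 19.5%), 16 higher (9.45%) and 20 lower (10.1%). In all, 62 members were called in at least 1 of these 3 comparisons (44%, against 31.5% of all genes) and 79 in none. Each mutant's slide is part of each of these differences. The rule used the same mutant arrays, each group against WT, so the members' shares are not independent of it and are given as a description.

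The higher members were farthest from WT in aft1Δ. This strain had the largest mean difference for 39 of the 60, sef1Δ aft1Δ for 17 and sef1Δ for 4. Among all genes, too, fewer were higher past the limit in sef1Δ (4.77% at low and 3.2% at high iron) than in aft1Δ (15% and 11.4%). The part that the rule plays in this order was not tested. Of the 60, 26 were called higher in aft1Δ than in sef1Δ and none lower (43.3% called, against 14.8% of all genes called higher). Against sef1Δ aft1Δ, 17 were called higher in aft1Δ (28.3%, against 10.1%) and 3 lower. The same 17 members were called above both other mutants, as were 8.14% of all genes.

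By size, SAKL0A03630g exceeded sef1Δ in aft1Δ by 2.48 ± 0.14 (adjusted p = 1.46e-15), ATC1 by 2.14 ± 0.16 (adjusted p = 7.31e-13) and MAK16 by 1.75 ± 0.11 (adjusted p = 1.3e-14). Compared with aft1Δ, sef1Δ aft1Δ differed by -2.09 ± 0.13 for SAKL0A03630g, -1.20 ± 0.15 for ATC1, -0.99 ± 0.10 for MAK16 and -1.55 ± 0.05 for ESF2. Of the 7 higher ribosome synthesis members, 6 were called higher in aft1Δ than in sef1Δ, and 6 lower in sef1Δ aft1Δ than in aft1Δ. Over the whole list of 91 genes, 55 were called higher in aft1Δ than in sef1Δ (14.8% of all genes were) and 1 lower (5.43%). For sef1Δ aft1Δ against aft1Δ, 32 of the 91 were called lower (35.2%, against 10.1% of all genes) and 0 higher. The direction of the list was thus that of its members in both comparisons.

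The lower members were farthest from WT in sef1Δ. This strain had the largest mean difference for 50 of the 81, sef1Δ aft1Δ for 20 and aft1Δ for 11. Of the 81, 19 were called higher in aft1Δ than in sef1Δ (23.5%, against 14.8% of all genes) and 25 in sef1Δ aft1Δ than in sef1Δ (30.9%, against 8.54%), and 17 in both (21%, against 4.33%). REC8 was higher in sef1Δ aft1Δ than in aft1Δ too, by 1.30 ± 0.14 (adjusted p = 4.13e-09). Against sef1Δ, REC8 was 1.91 ± 0.15 (adjusted p = 9.05e-12), SAKL0A06842g 1.86 ± 0.15, SAKL0C13640g 1.84 ± 0.17, HXT1 1.17 ± 0.09 and PCK1 1.08 ± 0.16 higher in sef1Δ aft1Δ than in sef1Δ. MAL11 was 1.64 ± 0.12 higher in aft1Δ than in sef1Δ (adjusted p = 5.8e-13). On its other probe SAKL0C13640g gave 0.40.

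A few lower members went the other way. RGT2 was lower in sef1Δ aft1Δ than in sef1Δ, with a difference of -0.97 ± 0.23 (adjusted p = 0.000828), and than in aft1Δ, with -1.48 ± 0.22 (adjusted p = 1.26e-06). ABF1 was lower than in sef1Δ in both other mutants, with -0.63 ± 0.08 in aft1Δ and -0.70 ± 0.08 in sef1Δ aft1Δ.

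**Figure D5:**
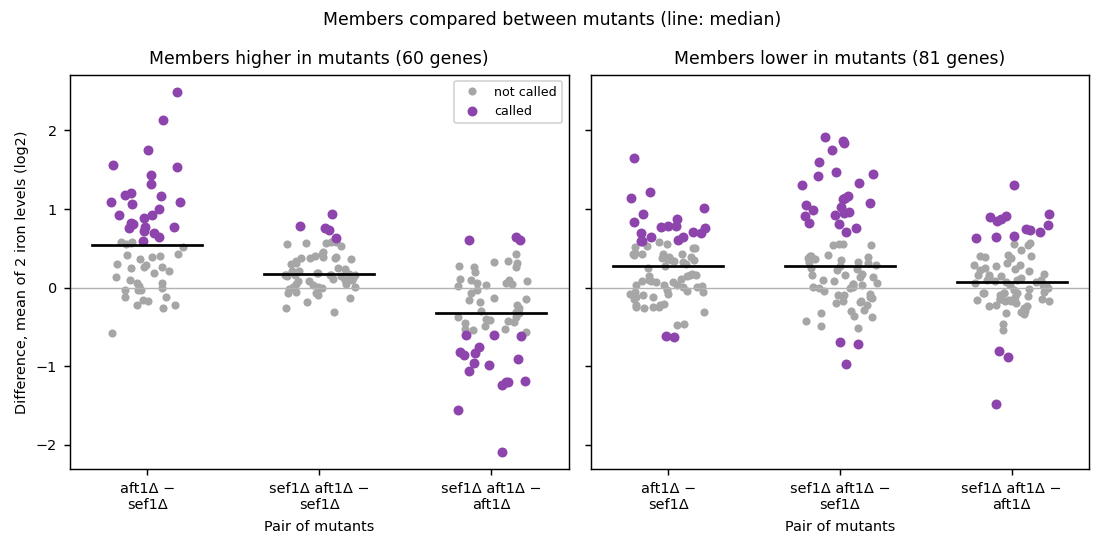
Difference between 2 mutants (log2, mean of both iron levels, vertical axis) for each higher (left) and lower (right) member, with called members in purple, the others in grey and the median as a line. Higher members lie mostly above 0 for aft1Δ against sef1Δ (median 0.54) and below it for sef1Δ aft1Δ against aft1Δ (median -0.32), and most of the called lower members lie above 0 for both comparisons with sef1Δ.

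These comparisons, too, could be read on the other probe. All 51 calls of higher members between mutants had the same sign there, and 58 of 65 calls of lower members. For the iron response it was 25 of 25 and 27 of 28 calls, and for its difference from WT 12 of 12 and 14 of 18, with 3 of the 4 exceptions on the dim probes of SAKL0F16346g and SAKL0D00506g. The probes thus gave one direction for most tested calls of the lower members, whereas their difference from WT, the quantity that chose them, kept its size in few.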

How the data were processed

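RNA was measured with one-colour Agilent arrays in 4 strains at 2 iron levels, which the methods describe as 3 or 4 biological replicates. The authors read the slides with Agilent Feature Extraction 10.5.1.1 and deposited, for each array, the scanner's processed signal intensity (background subtracted) and a table of log2 values, which they scaled to each array's 75th percentile in GeneSpring. The log2 levels and the differences from WT given above come from that deposited log2 table, with all spots. The tests used log2 of the deposited processed intensity minus the array's 75th percentile over non-control probes, leaving out spots with the scanner's mark for non-uniform outliers, as in the methods. Both scales differed by at most 0.008 per array. For each gene the probe with the higher mean was used and cross-hybridising probes were left out.

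One linear model with 8 group means was fitted over 31 arrays with limma 3.58.1 in R 4.3.3, with adjustment over all genes; the script was tested on simulated data. The precision is limited by 3 or 4 arrays per group. 1 gene that met the rule is not reported here. The members and the gene lists were chosen with earlier results of these data known. Lists were made from words in the gene notes or from gene names. Genes were named by rule: the 6 highest and 6 lowest members, the 2 on each side of the limit in each direction, up to 4 called members by size per contrast, up to 4 members per list and the 2 with the most discordant probes; others were named after their values were seen. Names rest on similarity, and neither probe sequences nor a genome were used here.

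Replicate numbers were checked for pairing. Same-numbered arrays of the 2 iron levels had deviations that correlated at 0.114 to 0.479 in WT and 0.121 to 0.3 in aft1Δ. The values were 0.245 to 0.527 in sef1Δ aft1Δ and -0.093 to 0.226 in sef1Δ. Arrays of unlike number were not compared, so these values do not show whether the numbers pair the arrays. The main tests did not use the numbers, and the replicate block was run as an alternative. A dim group's fold is a bound, taken against the weakest signal of clearly detected probes. Alternatives covered scale, background, marked and dim spots, probe, fold, the methods' t-test, the model and each array left out.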

Additional observations from a re-analysis of the deposited data

Results flagged for a closer look

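In 33 members whose arrays were examined one by one, 11 of 231 groups of 4 arrays held 1 array far from the other 3, and chance alone gives about 1 in 20. Replicate 4 of sef1Δ aft1Δ stood out for 4 genes: at low iron ATC1 (SAKL0H13904g) was at -2.70 against -3.34 to -3.30, RGT2 (SAKL0D10450g) at -2.35 against -1.47 to -1.40 and SFC1 (SAKL0F14234g) at -4.47 against -3.67 to -3.51, and at high iron SAKL0A03630g was at 1.94 against 0.92 to 1.09. SPO75 (SAKL0G12694g) was at -3.85 on replicate 1 of sef1Δ aft1Δ at low iron, against -4.65 to -4.55.

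In WT, SSN3 (SAKL0H11352g) was at -0.27 on replicate 1 at high iron against 1.23 to 1.32, HXT1 (SAKL0D14960g) at -2.51 on replicate 2 at high iron against -2.40 to -2.38, RGT2 at 2.68 on replicate 1 at low iron against 2.02 to 2.12 and SAKL0F02838g at -3.69 on replicate 3 at low iron against -4.24 to -4.17. In aft1Δ, MAK16 (SAKL0B10164g) was at -0.42 on replicate 4 at low iron against -0.88 to -0.85 and SAKL0G19888g, a dim probe, at -10.83 on replicate 3 at high iron against -9.93 to -9.80.

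The response to iron differed from that of WT in the interaction test for these named members. In sef1Δ the difference of responses was 2.07 for SAKL0H25410g (0.12 on its other probe), 1.32 for SAKL0F16346g, 1.24 for SAKL0D00506g and 1.14 for SAKL0E01474g. In aft1Δ it was -2.40 for RGT2, 1.19 for SAKL0F16346g, 0.94 for SAKL0E01474g and -0.73 for YKU80 (SAKL0E03652g, -0.07 on its other probe). In sef1Δ aft1Δ it was 1.51 for SAKL0E01474g, 1.07 for SAKL0F16346g, 1.04 for SAKL0D00506g and -1.02 for SAKL0H25410g.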

How the results depend on the processing

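The count of members moved most with the limit and the probe: 65 genes met the rule at a limit of 1.0 and 285 on the other probe, while leaving out 1 array gave 131 to 150. With the mean of a gene's probes 113 genes met it, 67 of them members. The 11 counts stayed within 1.5 times of their value in 116 of 134 alternatives. With a fold of at least 2, members called for the iron response fell to 1 in WT, 5 in sef1Δ, 2 in aft1Δ and 1 in sef1Δ aft1Δ, for its difference from WT to 4, 2 and 5, and between mutants to 17, 16 and 9. The methods' t-test after Benjamini-Hochberg adjustment called 2 in WT and 5 in sef1Δ. For the difference from WT in sef1Δ, the other probe gave 2 and the replicate block 13, and in aft1Δ a model of only the arrays compared gave 9 and the replicate block 9. The block changed no other count by as much.

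With 1 array left out, called members for the iron response ran from 5 to 10 in WT, 11 to 19 in sef1Δ, 7 to 10 in aft1Δ and 18 to 24 in sef1Δ aft1Δ, for its difference from WT from 3 to 8, 3 to 6 and 14 to 25, and between mutants from 42 to 52, 33 to 40 and 34 to 39. On the other probe, 4 values of named genes lost their sign: 0 for PSF3 in WT, -0.33 for SAKL0D00506g in sef1Δ against WT, and -0.91 and -0.64 for SAKL0F16346g in aft1Δ and sef1Δ aft1Δ against WT. The other probes of SAKL0D00506g and SAKL0F16346g were well above background on no array at low iron. The cause was not tested. For 137 of 141 members the signal was well above background throughout, and 3 or 4 arrays per group limit every test.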
